A study of Mus musculus with 6 samples.

Results

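The genes described here are 10 contractile genes best known from smooth muscle, namely Acta2, Actg2, Tagln, Cnn1, Cnn2, Myl9, Tpm1, Tpm2, Actn1 and Cald1. They were taken by gene symbol from a table of 54532 genes. Levels are in FPKM, the fragments on a gene scaled by its length and by the size of the library. Of the 10, 5 were at 1 FPKM or more in 3 or more of the 6 libraries and were tested, among 13441 genes in all. The libraries were made from poly-T selected RNA of bone marrow-derived macrophages (BMDMs), from C57BL/6 mice, after co-culture with ID8, a mouse ovarian cancer cell line. The labels and the results of the study name BMDMs, whereas its methods describe monocytes derived from bone marrow. In the cisplatin group the ID8 cells had first been exposed to 40 µM cisplatin, a DNA-crosslinking platinum drug, and in the PBS group to phosphate-buffered saline, with 3 libraries in each. The comparison addressed how tumour cells that had met the drug change the macrophages placed with them. No library of BMDMs cultured alone is among the 6. The methods of the study speak of biological replicates, but the sources used here do not say whether the 3 libraries of a group came from separate mice or cultures. The p-values therefore measure the spread between these libraries, which may be technical.

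In smooth muscle, force is made by myosin pulling on thin filaments of actin. Tropomyosin lies along the actin, caldesmon and calponin hold the filament back until calcium arrives, transgelin bundles actin, a phosphorylated light chain switches myosin on, and alpha-actinin anchors the filaments. Several of these genes are targets of serum response factor (SRF), and some have partner genes that encode closely related proteins used in the cytoskeleton of nearly every cell. Macrophages use the same parts for spreading, phagocytosis and podosomes. Acta2 and Tagln are also widely used as marker genes of myofibroblasts, and ID8 cells are themselves adherent cells with actin stress fibres.

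Sequencing depth was similar in the groups, with 15776238 to 16396353 reads recovered per cisplatin library and 15907567 to 17924686 per PBS library. The library size behind the FPKM values was 103.7 to 104.1% of the recovered reads with cisplatin and 97.4 to 98.7% with PBS. Scaling by recovered reads is therefore among the alternatives given at the end. No library stood apart from its group: over tested genes, Pearson's r on log2(FPKM + 1) was 0.984 to 0.989 within groups and 0.871 to 0.877 between them. The 12 markers of macrophages, the labelled cell type, were all present and tested, with a summed level of 4680 to 4864 FPKM in the cisplatin libraries and 1880 to 1907 FPKM in the PBS libraries. Genes that mark ID8 cells were present as well. The 16 ID8 and mesothelial markers summed to 185 to 200 FPKM with cisplatin and 1038 to 1110 FPKM with PBS. Keratin 19 (Krt19), the highest of them with PBS, was at 46.8 to 54.0 against 554 to 605 FPKM. Msln, mesothelin, differed less, at 59.2 to 63.3 against 98.4 to 101 FPKM. Cdh1, E-cadherin, went the other way, at 4.82 to 5.84 against 2.65 to 3.65 FPKM. Another 6 of the 16, Krt7, Lrrn4, Muc16, Epcam, Pax8 and Bnc1, were too low to be tested. Bulk RNA cannot tell fewer cells of a type from less RNA per cell. Because the macrophage markers were higher with cisplatin and most of the tested ID8 markers lower, their values are given again beside the results below.

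The tested members did not move together. With cisplatin-pretreated ID8 cells in the co-culture, Acta2 rose 3.74-fold, Cald1 fell 3.84-fold, Tpm1 was 2.01-fold and Actn1 1.24-fold lower without reaching the fold threshold, and Cnn2 was at nearly the same level in both groups. A gene was called when limma gave an adjusted p (Benjamini-Hochberg over all tested genes) under 0.05 together with a log2 fold change of 1 or more in size. By this rule 1 of the 5 tested members was called higher, against a background of 4.67% of all tested genes, and 1 was called lower, against 11.3%. The background for either direction was 15.9%. At the adjusted p alone, 4 of the 5 passed, against 68.0% of all tested genes. The 3 libraries of each group did not overlap in those same 4, against 72.4% of all tested genes. On 5 genes these counts show nothing particular to the members, which are therefore described singly. All 5 tested members were above 1 FPKM in all 6 libraries, and their median log2 fold change was -0.30, against -0.0011 over all tested genes. The remaining 5, Actg2, Tagln, Cnn1, Myl9 and Tpm2, stayed below 1 FPKM in every library.

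**Figure D1:**
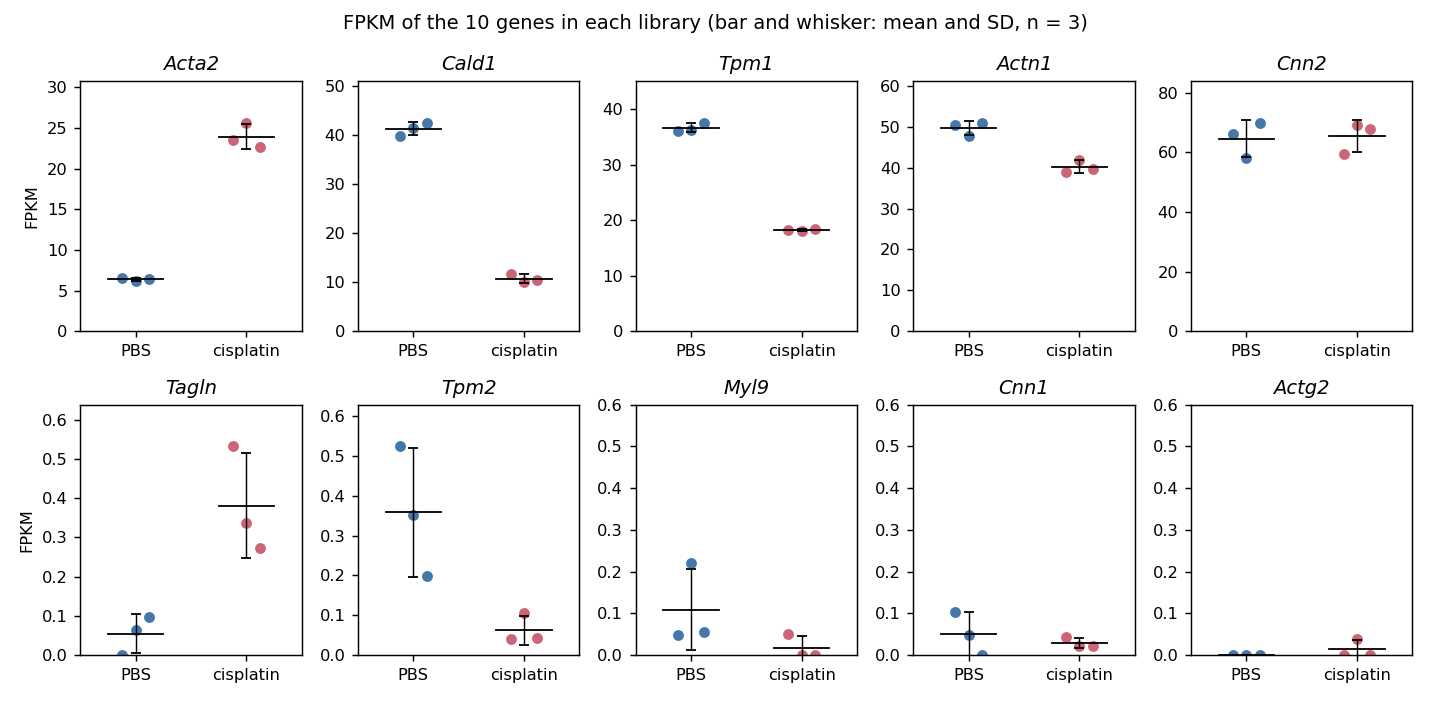
FPKM of each of the 10 genes, 1 panel a gene on a linear axis that starts at 0, with a point for each library and a bar and whisker for the mean and SD of 3 libraries. Acta2 sits between 22.7 and 25.6 FPKM with cisplatin and between 6.20 and 6.50 FPKM with PBS, Cald1, Tpm1 and Actn1 are separated the other way, Cnn2 overlaps, and the 5 genes of the lower row lie below 1 FPKM.

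To set the values beside the regulatory DNA they come with, the 250 bases before the annotated start were taken from RefSeq (build GRCm38.p6), which held an entry for 8 of the 10 members and 9 windows, since Cald1 has a pair of starts. Tagln and Actg2 had no entry. The windows were searched for the CArG box, the site of SRF, written as CC, then 6 letters all A or T, then GG, which reads alike on both strands. They were also searched for the same box with exactly 1 of the 6 letters changed to G or C, and for the TEAD factor motif CATTCC on either strand. The 5 windows with a match are printed 5′ to 3′ on the strand of the gene, with matches in capitals, because they include the 2 members that were called, Acta2 and Cald1, the tested member whose groups overlapped, Cnn2, and Myl9, which was almost silent. They lie at chr19:34255374-34255623 on the minus strand for Acta2, chr10:79988350-79988599 on the plus strand for Cnn2, chr2:156775214-156775463 on the plus strand for Myl9, chr9:67049214-67049463 on the minus strand for Tpm1 and chr6:34598254-34598503 on the plus strand for the first start of Cald1.
Acta2: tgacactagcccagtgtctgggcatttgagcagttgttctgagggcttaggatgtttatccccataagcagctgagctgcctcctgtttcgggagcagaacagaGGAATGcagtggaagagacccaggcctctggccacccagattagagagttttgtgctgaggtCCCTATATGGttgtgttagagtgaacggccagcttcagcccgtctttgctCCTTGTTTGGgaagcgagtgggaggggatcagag
Cnn2: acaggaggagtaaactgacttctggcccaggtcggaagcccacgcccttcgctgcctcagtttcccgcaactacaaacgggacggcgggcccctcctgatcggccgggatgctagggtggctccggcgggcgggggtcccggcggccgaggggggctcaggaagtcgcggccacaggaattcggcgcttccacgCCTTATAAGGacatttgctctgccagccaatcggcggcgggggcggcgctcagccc
Myl9: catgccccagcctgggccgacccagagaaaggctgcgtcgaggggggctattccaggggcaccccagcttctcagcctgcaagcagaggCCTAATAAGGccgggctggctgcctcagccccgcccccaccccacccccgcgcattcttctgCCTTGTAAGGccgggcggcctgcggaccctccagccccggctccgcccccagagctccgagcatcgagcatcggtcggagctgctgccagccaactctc
Tpm1: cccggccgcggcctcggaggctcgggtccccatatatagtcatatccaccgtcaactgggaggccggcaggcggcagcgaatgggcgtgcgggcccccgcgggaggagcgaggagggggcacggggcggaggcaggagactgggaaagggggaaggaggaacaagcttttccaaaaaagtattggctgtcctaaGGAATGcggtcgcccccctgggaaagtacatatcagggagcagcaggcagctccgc
Cald1: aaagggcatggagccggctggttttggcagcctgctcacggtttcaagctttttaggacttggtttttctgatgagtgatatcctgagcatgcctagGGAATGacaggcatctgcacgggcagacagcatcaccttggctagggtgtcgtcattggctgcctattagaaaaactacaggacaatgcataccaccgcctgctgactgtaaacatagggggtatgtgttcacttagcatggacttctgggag

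A CArG box with all 6 letters A or T was found in the windows of Cnn2, beginning 56 bases before the start, and Myl9, 161 bases before it. It was found in 1.47% of 32841 windows of the same length over all genes. The form with 1 letter changed stood in the Acta2 window, 84 and 34 bases before the start, and in the Myl9 window, 99 bases before it, and in 7.24% of all windows. CATTCC, which in these windows is read as its reverse complement GGAATG, began 146 bases before the start in Acta2, 56 in Tpm1 and 153 in Cald1, and was present in 12.6% of all windows. A match is a run of letters and not a measured site. The windows with GGAATG belonged to Acta2, which rose, and to Tpm1 and Cald1, which were lower, and the windows with the unchanged CArG box to a gene that overlapped between groups and one with almost no reads. The windows of Cnn1, Tpm2, Actn1 and the second Cald1 start held none of the 3 motifs.

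Acta2 encodes smooth muscle alpha-actin, the main actin of vascular smooth muscle and of myofibroblast stress fibres. The gene (ENSMUSG00000035783, chromosome 19, 34241090 to 34255336, minus strand, GRCm38) was measured at 23.5, 25.6 and 22.7 FPKM in cisplatin replicates 1 to 3 and at 6.50, 6.20 and 6.48 FPKM in the PBS replicates. All 3 cisplatin libraries were above all 3 PBS libraries, and neither group had a library far from its fellows. The means were 23.9 ± 1.52 and 6.40 ± 0.17 FPKM (SD, n = 3 each), and the log2 fold change was 1.75 (SE 0.055, limma adjusted p = 4.64e-07), with a 95% interval from 1.62 to 1.88. Its rise was number 83 in size among the 13441 tested genes, so that 0.618% had a log2 fold change as high or higher. These values rested on 711, 750 and 668 reads with cisplatin and 205, 172 and 179 with PBS. Only 7 of the 2146 stretches of 50 bases in its transcripts, or 0.326%, also occur in another gene, Actg1 and actin pseudogenes among them, which limits how many reads other actins could share with it.

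The cytoplasmic actins were at far higher levels than Acta2 and changed by less, and the other muscle actins were under 1 FPKM. Actb, the cytoplasmic beta-actin, was at 1500, 1534 and 1522 FPKM with cisplatin and 1091, 1017 and 1095 FPKM with PBS, a log2 fold change of 0.51 (SE 0.040, limma adjusted p = 3.51e-05). Actg1, the cytoplasmic gamma-actin, had a log2 fold change of 0.60. Both were higher in all 3 cisplatin libraries but did not reach the fold threshold. Actg2, the gamma-actin of gut smooth muscle (ENSMUSG00000059430, chromosome 6, 83512905 to 83536265, minus strand), gave 1 read in all 6 libraries together, in cisplatin replicate 2. In the 5 libraries with no read, a count of 0 allows up to 3 reads by counting error, which for this gene corresponds to 0.109 to 0.124 FPKM over the 6 libraries. Acta1 and Actc1, the skeletal and cardiac actins, were also under 1 FPKM, with 0 and 14 reads over the cisplatin libraries and 4 and 4 over the PBS libraries. Acta2 therefore took 1.16 ± 0.066% of the summed actin FPKM with cisplatin and 0.450 ± 0.0032% with PBS (SD, n = 3 each). The libraries of the groups did not overlap in this share, and the exact permutation test gave p = 0.1 (two-sided, also 0.1 after adjustment over 4 shares), the smallest that 3 libraries against 3 allow.

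The rise of Acta2 went along with a rise in macrophage RNA, so its level was also taken relative to each macrophage marker. Acta2 FPKM as a percent of Adgre1, the gene of the F4/80 antigen, was 12.5, 13.2 and 12.1 with cisplatin and 6.31, 5.96 and 6.35 with PBS. Relative to Lyz2, lysozyme, the most abundant of the markers, it was 0.692 ± 0.029% and 0.551 ± 0.014% (SD, n = 3 each). For 11 of the 12 markers each cisplatin library had a higher ratio than every PBS library (exact permutation p = 0.1 for each, two-sided, the smallest possible). The exception was Mertk, an engulfment receptor with 63 reads over the PBS libraries, where the ratios overlapped and their mean went the other way, at 1401 ± 158% with cisplatin and 2783 ± 1800% with PBS (SD, n = 3 each, p = 0.2, exact permutation test). Without PBS replicate 3, which had 9 Mertk reads, the PBS mean was 1753%. Mertk rose by more than Acta2 on the linear scale, 5.90-fold. Of the other 11 markers, the ratio differed least for Lyz2 and most for Cd68, a lysosomal protein, at 13.4 ± 0.94% against 4.10 ± 0.33% (SD, n = 3 each). All 12 ratios share the same Acta2 values. The log2 fold change was 1.75 for Acta2 and 0.20 to 1.57 for the markers, so separate ratios followed largely from values already given. Levels by themselves did not overlap in 72.4% of all tested genes. Which cells of the culture held the Acta2 RNA was not tested.

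Several defining genes of smooth muscle were at low levels, and the fibroblast markers were mixed. Myh11, the smooth muscle myosin heavy chain, was at 0.0387, 0.0481 and 0.0398 FPKM with cisplatin and 0.0149, 0.0169 and 0 FPKM with PBS, which is 16 and 4 reads. Lmod1, leiomodin, had 1 read over the cisplatin libraries and 22 over the PBS libraries, and Des, desmin, lay between 0.325 and 0.467 FPKM in all 6. Of the 14 fibroblast and pericyte markers only 3 were tested. Among them Dcn, decorin, fell from 54.1 ± 2.62 FPKM with PBS to 16.2 ± 0.84 FPKM (SD, n = 3 each), a log2 fold change of -1.68 (limma adjusted p = 4.89e-07), whereas Col1a1, at -0.47, and Thy1, at 0.58, passed the adjusted p but not the fold threshold. Of the 11 untested genes, Pdgfrb and Lum were higher without overlap with cisplatin, and Pdgfra, Fap, Lepr and Cxcl12 lower, against 10.1% and 8.28% of all untested genes with a value above 0. The summed level of the list was 22.3 to 24.9 FPKM with cisplatin and 59.8 to 63.6 FPKM with PBS, most of it Dcn, and Col1a2, Col3a1 and Postn had means under 0.05 FPKM in both groups. None of the 3 tested genes among the 8 endothelial markers was called by limma (backgrounds 4.67% higher and 11.3% lower), and 2 were higher and 1 lower at the adjusted p alone (background 68.0%). Cldn5 was listed at 0 throughout. The other 4 untested markers, Cdh5, Kdr, Tie1 and Emcn, were under 1 FPKM in every library and higher in each cisplatin library than in each PBS library, with 438 reads against 257 for Kdr, where 10.1% of all untested genes with a value above 0 were so separated. The list summed to 19.8 to 21.2 FPKM with cisplatin and 13.9 to 14.7 FPKM with PBS.

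Tagln encodes transgelin (SM22), an actin-bundling protein often measured together with Acta2. At ENSMUSG00000032085 (chromosome 9, 45929619 to 45936058, minus strand) it was at 0.532, 0.337 and 0.274 FPKM with cisplatin and 0, 0.0646 and 0.0973 FPKM with PBS. The cisplatin libraries were all above the PBS libraries, but the counts behind them were 18, 11 and 9 reads against 0, 2 and 3. Tagln was too low for the filter. The means were 0.381 ± 0.13 and 0.054 ± 0.050 FPKM (SD, n = 3 each), on 38 and 5 reads in all. In a fit without a filter, over 32914 genes, the limma adjusted p was 0.0165. The log2(FPKM + 1) scale compresses a gene at this level, where its fold change of 0.39 could not have reached the threshold. The gene shares 108 bases with Pcsk7 and lies across from the antisense transcript Gm48529, which had 28, 18 and 24 reads with cisplatin and 11, 15 and 13 with PBS. Since it is not stated whether reads were counted by strand, some of the few Tagln reads cannot be told apart from those of its antisense partner. Its relative Tagln2, the transgelin of most non-muscle cells, was at 148 ± 3.69 FPKM with cisplatin and 180 ± 6.10 FPKM with PBS (SD, n = 3 each, log2 fold change -0.28, limma adjusted p = 0.000538) and supplied over 98% of transgelin FPKM in every library.

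Tropomyosins are coiled-coil dimers that run along actin and set which other proteins can bind it. Tpm1 (ENSMUSG00000032366, chromosome 9, 67022590 to 67049406, minus strand) was at 18.2, 18.1 and 18.5 FPKM with cisplatin and 36.1, 36.3 and 37.6 FPKM with PBS. The libraries within each group were nearly alike and the groups lay far apart. Means were 18.3 ± 0.17 and 36.7 ± 0.80 FPKM (SD, n = 3 each), with a log2 fold change of -0.97 (SE 0.035, limma adjusted p = 7.93e-07) and a 95% interval from -1.05 to -0.88. Tpm1 thus missed the call by a small margin on the log2(FPKM + 1) scale, although its linear ratio was 2.01. Tpm2, the beta-tropomyosin of muscle (ENSMUSG00000028464, chromosome 4, 43514711 to 43523765, minus strand), was at 0.0404, 0.105 and 0.0416 FPKM with cisplatin and 0.524, 0.353 and 0.200 FPKM with PBS. Its groups did not overlap either, on 2, 5 and 2 reads against 27, 16 and 9. Its mean FPKM was 5.77-fold lower with cisplatin, on few reads. Without cisplatin replicate 2 the ratio was 8.75, and without each of the other libraries in turn it lay between 4.44 and 7.05. The fit without a filter gave -0.35 on the log2(FPKM + 1) scale (limma adjusted p = 0.0375), where a gene at this level could not reach the threshold.

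The cytoskeletal tropomyosins did not all follow Tpm1. Tpm4 was lower, at 144 ± 10.3 against 232 ± 9.38 FPKM (SD, n = 3 each, log2 fold change -0.69, limma adjusted p = 4.97e-05), while Tpm3 was higher, at 114 ± 0.61 against 79.8 ± 2.91 FPKM (log2 fold change 0.51, limma adjusted p = 1.91e-05). As shares of all tropomyosin FPKM, Tpm1 stood at 6.34, 6.70 and 6.79% with cisplatin and 10.6, 10.3 and 10.7% with PBS, a difference in means of -3.89 points that grew to -8.75 points when recovered reads took the place of FPKM. Tpm3 took 41.3 ± 1.63% against 22.9 ± 1.26%, and Tpm4 took 52.0 ± 1.87% against 66.5 ± 1.44% (SD, n = 3 each). None of these shares overlapped between the groups (exact permutation p = 0.1 for each, two-sided, the smallest possible).

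Cald1 encodes caldesmon, which binds actin, tropomyosin and myosin and damps their interaction. Among the tested members it showed the largest fall. The gene (ENSMUSG00000029761, chromosome 6, 34598500 to 34775473, plus strand) was at 11.8, 9.94 and 10.5 FPKM with cisplatin and 39.9, 41.4 and 42.5 FPKM with PBS. Every PBS library was above every cisplatin library by a wide margin. The means were 10.7 ± 0.94 and 41.3 ± 1.32 FPKM (SD, n = 3 each), with a log2 fold change of -1.85 (SE 0.064, limma adjusted p = 6.56e-07, 95% interval -2.00 to -1.70). Its fall was number 484 in size among the 13441 tested genes. Cald1 overlaps Npn2, Gm14547 and Gm13861, of which none had more than 10 reads in a library, against 24196 reads for Cald1 over the PBS libraries. Acta2 was at 15.5 ± 0.70% of the Cald1 level with PBS and at 225 ± 30.0% with cisplatin (SD, n = 3 each), so the order of these 2 genes by FPKM was opposite in the groups. Relative to Tpm1, Acta2 went from 17.5 ± 0.51% to 131 ± 9.44%.

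Calponins bind actin and slow myosin, and the family has a smooth muscle form, Cnn1, and 2 forms found in other cells, Cnn2 and Cnn3. Cnn1 (ENSMUSG00000001349, chromosome 9, 22099216 to 22109630, plus strand) was close to absent, with 2, 1 and 1 reads in the cisplatin libraries and 5, 2 and 0 in the PBS libraries. Cnn2 (ENSMUSG00000004665, chromosome 10, 79988584 to 79996062, plus strand) was the member with the highest FPKM. It was at 59.3, 69.2 and 67.8 FPKM with cisplatin and 66.1, 58.0 and 70.0 FPKM with PBS, and the groups overlapped. Its log2 fold change was 0.018 (SE 0.086, limma adjusted p = 0.860), with a 95% interval from -0.19 to 0.22. A change of the size called elsewhere was thus outside the interval, and smaller changes in either direction were inside it.

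Although Cnn2 was level, its share of the calponins was not. Cnn3, named h3 or acidic calponin, fell to 15.8 ± 0.19 FPKM in the cisplatin group from 52.8 ± 0.43 FPKM in the PBS group (SD, n = 3 each), with a log2 fold change of -1.68 (SE 0.032, limma adjusted p = 8.05e-08). It was the only gene called among the 11 tested relatives of the members. Cnn2 accordingly supplied 78.9, 81.3 and 81.3% of calponin FPKM in the cisplatin libraries and 55.7, 52.1 and 57.1% in the PBS libraries. The shares did not overlap, with means of 80.5 ± 1.38% and 54.9 ± 2.58% (SD, n = 3 each, exact permutation p = 0.1, two-sided, the smallest possible, also 0.1 after adjustment over 4 shares).

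Myl9 encodes the myosin regulatory light chain of smooth muscle, whose phosphorylation starts contraction. At ENSMUSG00000067818 (chromosome 2, 156775420 to 156781658, plus strand) it had 1, 0 and 0 reads with cisplatin and 1, 4 and 1 with PBS, and the groups overlapped. The regulatory light chain RNA of these libraries came from Myl12a and Myl12b, the non-muscle forms. Myl12a made up over 90% of it in every library and was at 26.8 ± 0.35 FPKM with cisplatin and 39.1 ± 2.54 FPKM with PBS (SD, n = 3 each, log2 fold change -0.52, limma adjusted p = 0.000106). Myl12b was at 2.27 ± 0.28 and 2.59 ± 0.49 FPKM, with a log2 fold change of -0.13 (limma adjusted p = 0.396). Among the essential light chains, Myl6 had a log2 fold change of 0.16 (limma adjusted p = 0.113) and Myl6b of -0.37 (limma adjusted p = 0.0233).

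Actn1 encodes alpha-actinin-1, a crosslinker that anchors actin at adhesions and dense bodies. The gene (ENSMUSG00000015143, chromosome 12, 80167547 to 80260371, minus strand) was at 38.9, 42.0 and 39.7 FPKM with cisplatin and 50.5, 47.8 and 51.0 FPKM with PBS. The groups did not overlap but lay close, with means of 40.2 ± 1.60 and 49.8 ± 1.72 FPKM (SD, n = 3 each) and a log2 fold change of -0.30 (SE 0.044, limma adjusted p = 0.000762, 95% interval -0.41 to -0.20). Its relative Actn4 was lower by more, at 64.6 ± 4.37 against 97.0 ± 3.22 FPKM (log2 fold change -0.58, limma adjusted p = 9.20e-05). Actn1 therefore took a slightly larger share of alpha-actinin FPKM with cisplatin, 38.3 ± 1.27% against 33.9 ± 0.18% (SD, n = 3 each, exact permutation p = 0.1, two-sided, the smallest possible). Actn2 and Actn3, the sarcomere forms, were under 1 FPKM. The transcripts of Actn1 share 16 of 5520 stretches of 50 bases with Actn4, or 0.29%, and the 3 genes that overlap it had at most 5 reads in a library.

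**Figure D2:**
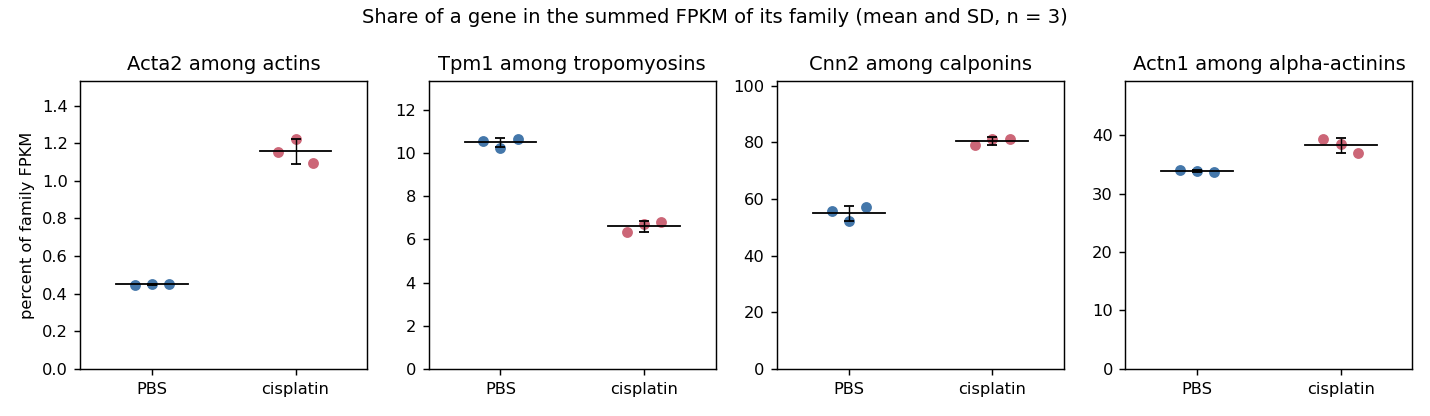
FPKM of Acta2, Tpm1, Cnn2 and Actn1 as a percent of the summed FPKM of their families, with a point for each library and a bar and whisker for the mean and SD of 3 libraries. The groups do not overlap in any panel: the share is higher with cisplatin for Acta2, Cnn2 (80.5% against 54.9%) and Actn1, and lower for Tpm1 (6.61% against 10.5%).

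Of the 16 relatives of the members, 11 were tested. None was called higher and 1, Cnn3, was called lower, against 4.67% and 11.3% of all tested genes. At the adjusted p alone 3 were higher (Actb, Actg1 and Tpm3) and 6 lower, 9 of 11 against a background of 68.0%, and the median log2 fold change was -0.28. The 5 untested relatives, Acta1, Actc1, Tagln3, Actn2 and Actn3, are muscle or neuronal forms, and each had a mean under 1 FPKM in both groups. In each family the RNA thus came mainly from forms that many cell types share, and Acta2, while higher, remained the smallest of the 3 actins above 1 FPKM.

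**Figure D3:**
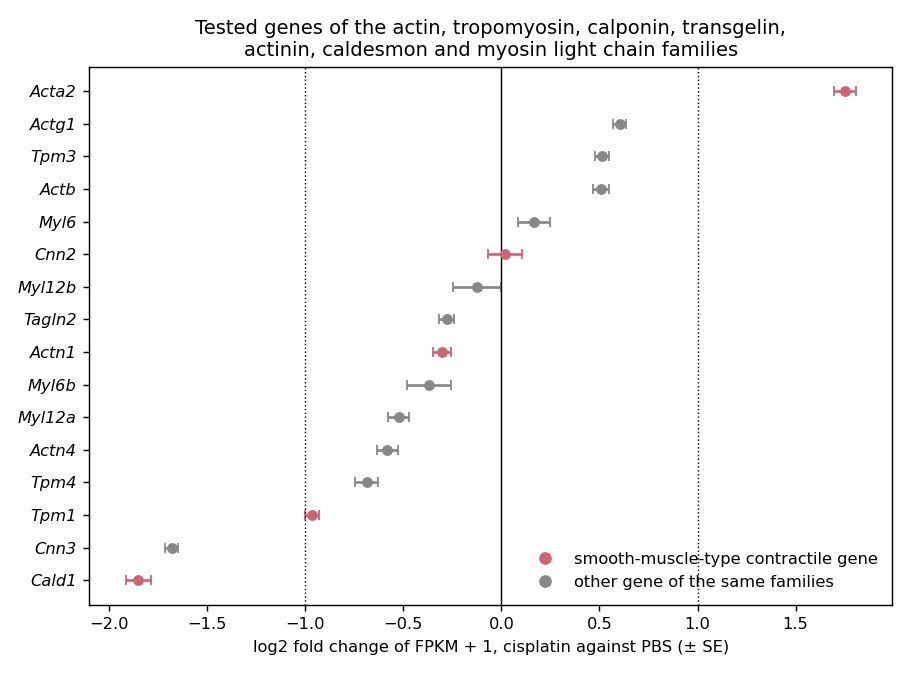
Log2 fold change of FPKM + 1, cisplatin against PBS, of the 5 tested members and their 11 tested relatives, ordered by value, with bars for the standard error and dotted lines at the threshold. Acta2 at 1.75 is the only gene past the line on the higher side, and Cnn3 at -1.68 and Cald1 at -1.85 are past it on the lower side.

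A wider list of 25 other genes of the smooth muscle contractile apparatus was read in the same way. Of these, 13 were tested, 0 were called higher and 6 lower (Cavin1, Smtn, Csrp1, Cav1, Vcl and Hspb6), against 4.67% higher and 11.3% lower among all tested genes, and the median log2 fold change was -0.71. Most tested ID8 and mesothelial markers moved the same way, with 7 of 10 called lower, and their part in these values was not tested. At the adjusted p alone 11 of the smooth muscle genes were lower and 1, Flna, was higher, 12 of 13 against a background of 68.0%. Cavin1, a coat protein of caveolae, showed the largest fall, to 12.1 ± 0.64 FPKM in the cisplatin group from 76.2 ± 4.90 FPKM in the PBS group (SD, n = 3 each), a log2 fold change of -2.56 (limma adjusted p = 1.45e-07). Smtn, smoothelin, which binds actin in contractile smooth muscle, was at 22.2, 24.1 and 23.8 FPKM with PBS and 3.56, 3.81 and 4.13 FPKM with cisplatin (log2 fold change -2.33, limma adjusted p = 2.13e-07). Csrp1, a LIM protein of actin bundles, fell from 95.5 ± 4.51 to 31.3 ± 2.48 FPKM (log2 fold change -1.58, limma adjusted p = 1.36e-06). The other 12 genes had means under 1 FPKM in both groups and were not tested. Among these, 7 were higher in every cisplatin library than in every PBS library and 1, Lmod1, was lower. Of the 19473 untested genes with a value above 0 in any library, many of them with few reads, 10.1% were separated in the first direction and 8.28% in the second. The 7 were Itga8, Tgfb1i1, Synpo2, Mcam, Myh11, Pdlim3 and Kcnmb1, of which Pdlim3 and Kcnmb1 had 9 and 7 reads in all with cisplatin and 1 each with PBS. Itga8, integrin alpha 8, had 120 reads over the cisplatin libraries and 16 over the PBS libraries, a 7.35-fold difference in mean FPKM, and Synpo2, an actin-binding protein, had 207 and 54 reads, a 3.69-fold difference.

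Genes that regulate SRF targets were read as a further list, of which 22 were in the table and 17 were tested. Again 0 were called higher, and 4 were called lower (Gata6, Tead1, Klf4 and Fhl2), against 4.67% and 11.3% of all tested genes. At the adjusted p alone 5 were higher and 8 lower, 13 of 17 against a background of 68.0%, and the median was -0.12. Here too most tested ID8 and mesothelial markers were lower, with 7 of 10 called, and their part in the falls of this list was not tested. Srf itself was at 20.2 ± 0.90 FPKM with cisplatin and 16.6 ± 0.54 FPKM with PBS (SD, n = 3 each, log2 fold change 0.27, limma adjusted p = 0.00197). Its cofactor Mkl1, the myocardin-related factor MRTF-A, had a log2 fold change of 0.23 (limma adjusted p = 0.0133). The related Mkl2, MRTF-B, was at -0.072 (limma adjusted p = 0.357), with overlapping groups. Myocd, myocardin, the cofactor of smooth muscle and heart, stayed under 0.1 FPKM in every library. Gata6, a GATA factor of mesothelium and smooth muscle, fell from 10.9 ± 0.45 to 1.49 ± 0.25 FPKM (log2 fold change -2.25, limma adjusted p = 9.10e-07). Tead1, which binds CATTCC, fell from 9.38 ± 0.32 to 1.70 ± 0.10 FPKM (log2 fold change -1.94, limma adjusted p = 3.76e-07). The other TEAD genes were mixed. Tead4 was lower (log2 fold change -0.68, limma adjusted p = 0.000529). Of the untested ones, Tead3 had a lower mean with cisplatin, 0.245 against 0.762 FPKM, and Tead2 a higher one, 0.611 against 0.348 FPKM. Klf4, a zinc-finger factor that represses smooth muscle genes and is also used by monocytes, fell from 74.0 ± 1.37 to 27.6 ± 1.04 FPKM (log2 fold change -1.39, limma adjusted p = 2.81e-07).

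**Figure D4:**
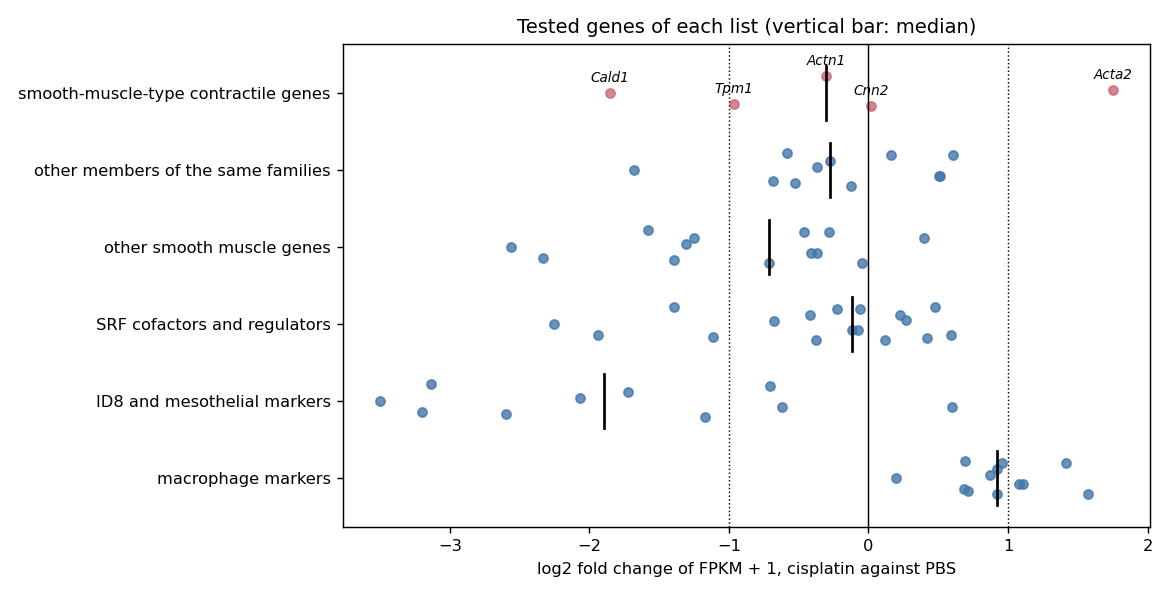
Log2 fold change of FPKM + 1, cisplatin against PBS, with a point for each tested gene of the member list, 3 related lists, the ID8 and the macrophage markers, and a vertical bar for the median of each list. The macrophage markers lie above 0 (median 0.92), the ID8 and mesothelial markers mostly below it (median -1.89), and Acta2 at 1.75 lies above every other gene shown.

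Among the tested members Cald1, Tpm1 and Actn1 were lower, as were most tested ID8 markers, and Acta2 was higher, as were the macrophage markers. A shared sign is common, since 6734 of the 13441 tested genes had a negative log2 fold change and 6707 a positive one. Of the 16 ID8 and mesothelial markers, 10 were tested and 7 called lower, against 11.3% of all tested genes, at a median log2 fold change of -1.89, with a summed level 185 to 200 FPKM with cisplatin against 1038 to 1110 FPKM with PBS. At the adjusted p alone 9 were lower and 1, Cdh1, was higher (log2 fold change 0.60, limma adjusted p = 0.00238), against a background of 68.0% for either direction. Among the 12 macrophage markers 4 were called higher, against 4.67% of all tested genes, and their log2 fold changes ran from 0.20 to 1.57 with a median of 0.92. Acta2, at 1.75, lay above that range on the log2(FPKM + 1) scale, though not in linear fold, where Mertk rose 5.90-fold and Acta2 3.74-fold. Cald1, at -1.85, lay close to the ID8 median, while Tpm1, at -0.97, and Actn1, at -0.30, lay above it. The 4 Y-linked genes, which a female-derived line such as ID8 lacks, summed to 41.6 to 42.8 FPKM with cisplatin and 19.5 to 22.7 FPKM with PBS, with a median log2 fold change of 0.70. How far the makeup of the culture contributed to the values of Acta2, Cald1, Tpm1 and Actn1 was not tested.

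When libraries were scaled by these 4 Y-linked genes, a setting added once the data had been seen, the log2 fold change of Acta2 was 0.84 (limma adjusted p = 2.86e-05), no longer past the fold threshold. On that scale Cald1 was at -2.79, Tpm1 at -1.92, Actn1 at -1.28 and Cnn2 at -0.96, and the median of all tested genes shifted by -0.83.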

How the data were processed

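RNA of 6 co-culture libraries, 3 cisplatin and 3 PBS as the labels group them, was analysed from 1 table of FPKM. The deposited FPKM values were computed by the authors per gene and library, with replicates not pooled. The methods of the study name LifeScope for alignment and counting and DESeq2 for testing, whereas the submitters' processing notes name fastp, HISAT2 2.0.5, featureCounts 1.5.0-p3 and mm10. Whether counting used strand is not given in the sources used here. Multiplied by gene length, 100% of values worth under 200 reads came out whole within 0.02 reads, which gave the recovered reads; intervals and limits from them cover counting error only.

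Genes at 1 FPKM or more in at least 3 libraries were tested as log2(FPKM + 1) with limma 3.58.1 in R 4.3.3 (lmFit, eBayes with a trend, group as the only term). Fold changes on this scale understate those of low genes. Shares, ratios and exact permutation tests were computed with scipy 1.17.1 in Python 3.11.15. The procedure was tested on simulated data. Members and lists were chosen with earlier results of these data known. All members and their relatives were named, as were, in each related list, the 3 called genes with the largest fall and any with the largest rise, and the markers needed to check cell types. Other called genes of the lists, and Flna, Mkl1, Mkl2, Srf, Myocd, Tead2, Tead3, Tead4, Msln, Cdh1 and the untested smooth muscle genes, were chosen after their values were seen. For Mrtfa and Mrtfb the table's symbols Mkl1 and Mkl2 were used, and 2 of the 24 names of the SRF list were not matched. The results of 1 further list are not reported here. Sequence windows and shared stretches came from RefSeq and GENCODE M21.

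Alternatives were scaling by median of ratios, TPM or quantiles, a filter at 5 FPKM or none, a pseudocount of 0.1, eBayes without a trend, limma voom on recovered reads, a replicate block, each library left out once, calls by adjusted p only, shares of recovered reads and, added later, Y-linked scaling.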

Additional observations from a re-analysis of the deposited data

How the results depend on the processing

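Acta2 was called higher and Cald1 lower in every fit, except that Acta2 was not called under scaling by Y-linked genes. Over 16 alternative fits the log2 fold change of Acta2 ran from 0.84 to 1.99 (limma adjusted p 2.49e-12 to 4.55e-05) and that of Cald1 from -2.79 to -1.75. Genes called higher numbered 628, and 973 with a pseudocount of 0.1, 1227 with limma voom, 85 with Y-linked scaling and 4424 at the adjusted p alone. Genes called lower numbered 1514, and 5181 with Y-linked scaling and 4721 at the adjusted p alone. The share of calls that were higher was 29.3%, and 39.3% under quantile scaling, which moved the median of all genes by 0.10, 39.7% with voom and 1.61% with Y-linked scaling. Members called higher numbered 0 with Y-linked scaling. Members called lower numbered 2 with a pseudocount of 0.1, which added Tpm1, and 3 with Y-linked scaling or at the adjusted p alone. Cnn2 changed sign to -0.96 with Y-linked scaling. With limma voom on recovered reads, which moved the median of all genes by 0.086, Cnn2 was at 0.10 (limma adjusted p = 0.175). In that fit Actn1 was at -0.22 (limma adjusted p = 0.000243). Leaving out 1 library gave Cnn2 values from -0.057 to 0.087, negative without cisplatin replicate 2 (-0.023), cisplatin replicate 3 (-0.0085) or PBS replicate 2 (-0.057), 622 to 671 genes higher and 1513 to 1531 lower, and changed no member's call. By recovered reads in place of FPKM, the difference in family share was 0.47 points for Acta2, against 0.71, and -8.75 points for Tpm1, against -3.89.

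A fit with a replicate block gave 625 genes higher and 1515 lower, and no member's call changed (Acta2 1.75, limma adjusted p = 4.55e-05). The labels do not say that a shared number means a shared preparation. Deviations of same-numbered libraries correlated at -0.10, -0.086 and -0.024, and no library correlated best with its own number. Depth limits Actg2, Myl9, Cnn1, Tagln and Tpm2, which rest on few reads, and with 3 libraries against 3 no exact test could pass 0.05.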
